A study of Mus musculus with 18 samples.

Results

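The 45 genes described here are those whose symbols mark them as proteasome genes (Psma, Psmb, Psmc, Psmd or Psme followed by a number) and that had a count in any library, out of 20655 genes in the count table. The rule used names only and no measured difference. Of the 45, 19 were core genes (Psma and Psmb) and 26 were regulatory genes (Psmc, Psmd and Psme). The labels give the cells as basal cells of mouse epidermis at E18.5, and an shRNA had been injected in utero at E9.5. The 3 conditions were HrasG12V epidermis with an shRNA against Eif2b5 (HrasG12V shEif2b5), HrasG12V epidermis with a scrambled shRNA (HrasG12V shScram) and wild-type epidermis with the scrambled shRNA (WT shScram). Each condition had 3 ribosome footprint libraries and 3 total RNA libraries, 18 in all, and cycloheximide, which stalls elongating ribosomes, was present while the epidermis was taken apart with dispase and trypsin. Hras is a small GTPase whose G-to-V change at codon 12 keeps it in its active state, and Eif2b5 encodes a subunit of eIF2B, the exchange factor that recharges initiation factor eIF2. The HrasG12V mice were of the strain labelled FR-HrasG12V and the WT mice of a Rosa26 reporter strain that carries ACTB-tdTomato and EGFP, so strain and Hras genotype cannot be told apart. No group combined WT with shEif2b5. The genotype label of WT shScram footprint library 1 reads Rosa26, and it was kept with the WT libraries. Nothing in the labels ties the 3 replicates of a condition to different animals, so p-values measure the spread between these libraries, which may be technical.

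The proteasome is the protease that degrades ubiquitin-tagged proteins in the cytosol and nucleus. Its barrel-shaped core particle, the 20S proteasome, is built from alpha rings, which gate the entrance, and beta rings, which hold the proteolytic sites. A 19S regulatory particle at either end binds ubiquitin chains, removes them, and unfolds the substrate with a ring of ATPases. All constitutive subunits are needed in fixed ratios, and in keratinocytes, as in other cells, the genes are expressed throughout. In other cell types shortage of proteasome activity is known to raise transcription of the whole set through the factor Nfe2l1, which binds antioxidant response elements in the promoters.

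By role, the 45 genes held 7 alpha and 7 beta subunits of the constitutive 20S core, 3 immunoproteasome subunits that replace catalytic beta subunits, 2 tissue-restricted 20S subunits, 6 ATPases and 11 non-ATPase subunits of the 19S particle, 3 chaperones of 19S assembly and 5 genes of other activators. The remaining gene, Psmc3ip, matches by name only, since it encodes a recombination factor known from meiosis and not a proteasome subunit. The low-count filter kept 41 of the 45 in each kind of library, 16 core and 25 regulatory, and the 4 not tested were Psma8, Psmb9, Psmb11 and Psme2b. In 10 of the 45, another annotated transcript shared at least 95% of bases over at least 50% of the coding sequence. They were Psma3, Psma4, Psma5, Psmb3, Psmb5, Psmc1, Psmd2, Psmd11, Psme2 and Psme2b, and their counts are uncertain, because the handling of reads that fit several places is not given in the sources used here. The strand setting is not given either, so reads of overlapping antisense genes could not be told apart.

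Counts on coding sequences totalled 3319175 to 4933298 per footprint library and 1771365 to 5505386 per RNA library. The 45 genes took 0.871% to 1.04% of footprint counts and 0.393% to 0.553% of RNA counts. HrasG12V shScram RNA libraries 1 and 3 and WT shScram RNA library 3 were deeper, at 5214473, 4310239 and 5505386 counts, than the other 6 RNA libraries, which held at most 2812627. Eif2b5 itself, the targeted gene, did not pass the test between HrasG12V shEif2b5 and HrasG12V shScram. Its footprints stood at 82.7, 78.5 and 95.4 CPM (counts scaled to library size) in HrasG12V shEif2b5 libraries, against 91.9, 93.1 and 102 CPM in HrasG12V shScram libraries (log2 difference −0.16 ± 0.12 SE, adjusted p = 0.994, edgeR), and its RNA at 134, 128 and 143 CPM against 127, 388 and 145 CPM. HrasG12V shScram RNA library 2 therefore stood apart for the targeted gene. Summed RNA of 8 basal keratinocyte markers spanned 14800 to 16700 CPM in HrasG12V shEif2b5, 9360 to 13000 CPM in HrasG12V shScram libraries and 14000 to 18500 CPM in WT shScram libraries. Summed RNA of 6 spinous markers spanned 46100 to 59100, 34000 to 62600 and 64900 to 97900 CPM in the same order of groups. Spinous markers thus outweighed basal markers in every RNA library, although the labels name basal cells. Footprints of the spinous markers varied within a group, from 22900 to 69600 CPM in HrasG12V shEif2b5. Summed RNA of 6 dermal fibroblast markers spanned 469 to 565, 518 to 1050 and 358 to 2120 CPM in the same order of groups, and the part of other cells in the results was not tested.

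Coding sequences of the members differ in base composition, and the RNA differences described further on ran with it. The first 90 bases of coding sequence are shown for 4 members that span that range, with G and C in capitals, from the GENCODE mouse annotation of GRCm38 (mm10). Over the whole coding sequence G and C made up 42.4% in Psma3, 45.1% in Psma1, 57.8% in Psmb5 and 58.9% in Psmd9. At the last codon position the shares were 36.5% in Psma3, 36.5% in Psma1, 66.3% in Psmb5 and 72.5% in Psmd9.
Psma3: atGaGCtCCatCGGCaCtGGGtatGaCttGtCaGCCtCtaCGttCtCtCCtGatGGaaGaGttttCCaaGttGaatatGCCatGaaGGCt
Psma1: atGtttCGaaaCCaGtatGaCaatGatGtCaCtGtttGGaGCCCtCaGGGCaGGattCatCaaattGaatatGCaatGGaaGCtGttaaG
Psmb5: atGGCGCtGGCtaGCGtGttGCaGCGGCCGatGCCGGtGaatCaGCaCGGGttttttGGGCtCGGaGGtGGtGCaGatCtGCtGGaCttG
Psmd9: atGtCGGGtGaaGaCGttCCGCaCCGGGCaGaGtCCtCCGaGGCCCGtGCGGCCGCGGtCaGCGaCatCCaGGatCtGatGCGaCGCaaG

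The 14 constitutive 20S subunits are present in equal copies in the particle, and their footprint levels lay close together. Levels are given per length, as CPM divided by the coding length in kilobases, with library sizes scaled by TMM within each kind of library. Mean footprint level over the 9 libraries ran between 301 CPM per kb for Psmb5, the chymotrypsin-like catalytic subunit, and 544 CPM per kb for Psmb3, a structural beta subunit. Psmb1 had 493, Psma6 482, Psmb4 477, Psma3 476 and Psma2 437 CPM per kb, and the remaining subunits lay between Psma2 and Psmb5. Psmb6, the caspase-like catalytic subunit, had 326 CPM per kb and Psmb7, the trypsin-like one, 354 CPM per kb. Within a single footprint library the highest of the 14 exceeded the lowest 1.72-fold to 2.17-fold, and Psmb5 was the lowest in all 6 HrasG12V libraries. Psmb5 and Psmb3 both have near-identical copies, so the counts at both ends of this order are uncertain. Neighbours in this order overlapped across libraries.

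RNA levels of the same 14 subunits were more uneven. Mean RNA level was 248 CPM per kb for Psmb1 and 238 for Psmb4, and 89.8 for Psma4, 90.1 for Psmb2 and 91.1 for Psma3. The highest-to-lowest ratio of RNA level was 3.65-fold to 4.22-fold in HrasG12V shEif2b5 libraries, 2.38-fold to 2.84-fold in HrasG12V shScram libraries and 3.24-fold to 4.62-fold in WT shScram libraries. In all 3 HrasG12V shScram libraries, the shallow and the deep ones, RNA of the core subunits was thus more even than in any library of the other groups. The SD of log2 RNA level over the 14 subunits was 0.64 to 0.72 in HrasG12V shEif2b5, 0.34 to 0.43 in HrasG12V shScram and 0.58 to 0.69 in WT shScram libraries, whereas over all genes it was 1.87 to 1.92, 1.79 to 1.91 and 1.85 to 1.90. Over the 17 constitutive 19S subunits it was 0.67 to 0.8, 0.39 to 0.59 and 0.59 to 0.71 in the same order. The more even RNA in HrasG12V shScram was thus not particular to the core. For footprints the SD over the 14 subunits was 0.28 to 0.33, 0.30 to 0.32 and 0.22 to 0.31 in the same order, and the groups overlapped.

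**Figure D1:**
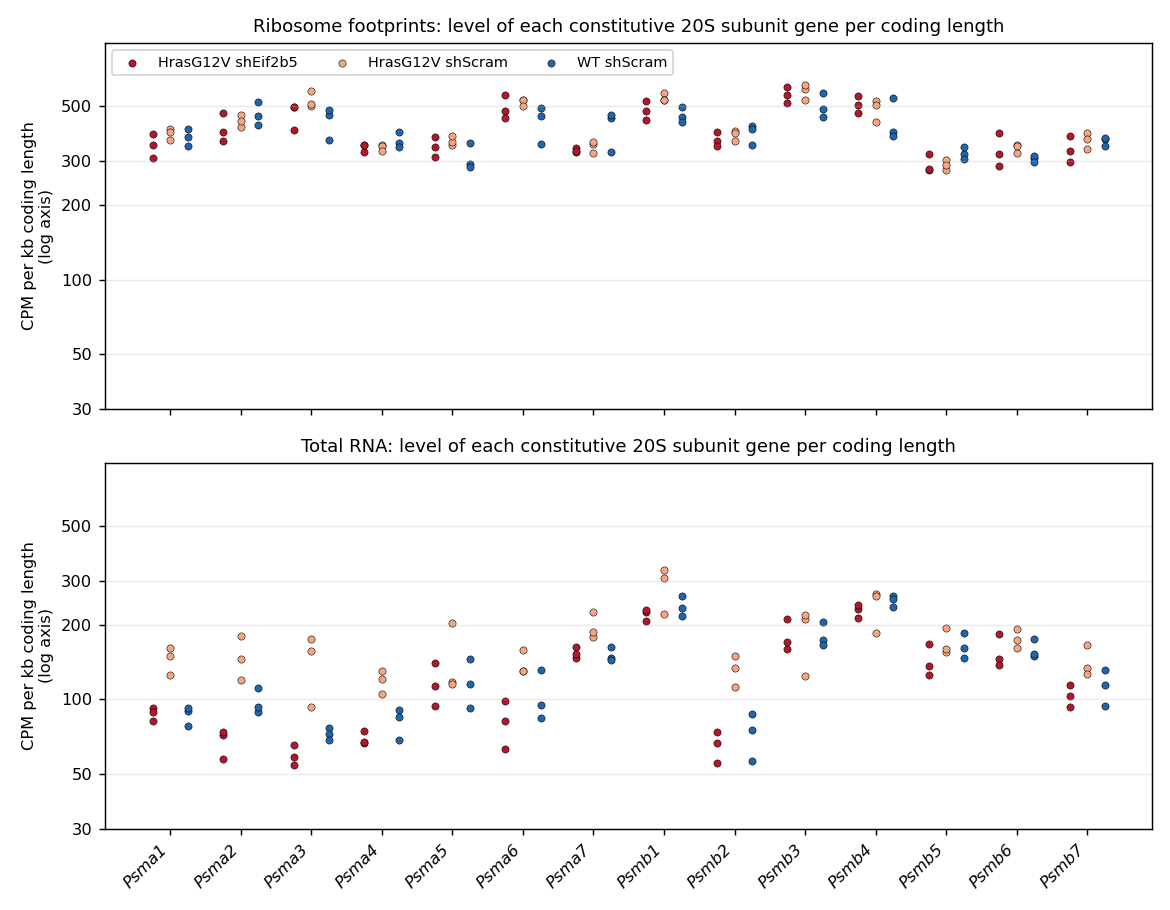
Level per coding length (CPM per kb, log axis) of the 14 constitutive 20S subunit genes in footprint libraries (upper panel) and total RNA libraries (lower panel), with a point for each of 3 libraries per condition, HrasG12V shEif2b5 left of HrasG12V shScram left of WT shScram. Footprint levels lay within 1.72-fold to 2.17-fold of each other in each library, while RNA levels of Psma1 to Psma4 and Psmb2 sat low in HrasG12V shEif2b5 and WT shScram libraries.

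Footprint levels of most 19S subunits lay below those of the core. Highest among the 17 were Psmc6, an ATPase, at 303 CPM per kb and Psmd8, a lid subunit, at 298 CPM per kb on average. Lowest were the scaffold subunits Psmd1 at 90.7 and Psmd2 at 119 CPM per kb, the largest proteins of the base. Psmd4, a ubiquitin receptor, had 174 CPM per kb and Psmd14, the deubiquitinase of the lid, 251 CPM per kb. Within a footprint library the 17 spanned 2.75-fold to 4.11-fold, a wider range than the core in every library. The 3 assembly chaperones Psmd5, Psmd9 and Psmd10, which leave the finished particle, had 78.9, 58.2 and 63.8 CPM per kb.

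Core levels exceeded regulatory levels in footprints and, less so, in RNA. The ratio of the core median to the regulatory median of footprint level per kb was 1.83 to 2.06 in HrasG12V shEif2b5, 1.92 to 2.13 in HrasG12V shScram and 2.03 to 2.35 in WT shScram libraries (mean 2.06 ± 0.145 SD over 9 libraries). The same ratio of RNA level was 1.14 to 1.2 in HrasG12V shEif2b5, 1.40 to 1.8 in HrasG12V shScram and 1.25 to 1.53 in WT shScram libraries (mean 1.38 ± 0.216 SD over 9 libraries). In RNA the HrasG12V shEif2b5 libraries all lay below those of the other groups, which overlapped each other, and in footprints all 3 groups overlapped. With constitutive subunits only, the RNA ratio was 1.15 to 1.31 in HrasG12V shEif2b5, 1.21 to 1.9 in HrasG12V shScram and 1.08 to 1.57 in WT shScram libraries, and all groups overlapped. With the sum over genes in place of the median the ratio was 1.37 ± 0.0539 for footprints and 0.954 ± 0.145 for RNA, so in RNA the direction depends on the summary. By sums the RNA ratio was 0.81 to 0.897 in HrasG12V shEif2b5, 0.918 to 1.26 in HrasG12V shScram and 0.852 to 0.953 in WT shScram libraries, and HrasG12V shEif2b5 overlapped WT shScram.

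Immunoproteasome genes, which interferon induces, were low beside the constitutive subunits. Psmb8, which takes the place of Psmb5, had footprints of 2.82, 2.45 and 4.0 CPM in HrasG12V shEif2b5, 5.57, 3.82 and 3.14 CPM in HrasG12V shScram libraries and 2.51, 1.13 and 2.75 CPM in WT shScram libraries. The 3 HrasG12V shScram values lay above all WT shScram values, and HrasG12V shEif2b5 overlapped both. The footprint difference of HrasG12V shScram from WT shScram was 0.99 ± 0.44 (log2, SE), with an edgeR adjusted p of 0.313. Psmb10, which takes the place of Psmb7, had footprints of 3.62, 7.36 and 9.12 CPM in HrasG12V shEif2b5, 8.25, 7.37 and 8.29 CPM in HrasG12V shScram libraries and 3.35, 5.67 and 7.01 CPM in WT shScram libraries, and its difference of 0.57 ± 0.34 between HrasG12V shScram and WT shScram had an adjusted p of 0.486. RNA of Psmb8 stood at 2.59, 2.84 and 5.17 CPM in HrasG12V shEif2b5, 4.39, 3.89 and 3.02 CPM in HrasG12V shScram libraries and 2.43, 1.55 and 3.62 CPM in WT shScram libraries, with all groups overlapping. RNA of Psmb10 stood at 8.88, 7.45 and 9.86 CPM in HrasG12V shEif2b5, 8.59, 5.55 and 6.91 CPM in HrasG12V shScram libraries and 10.9, 6.22 and 7.59 CPM in WT shScram libraries. Psmb9, which takes the place of Psmb6, was not tested, with footprints of 1.01, 1.12 and 0.89 CPM in HrasG12V shEif2b5, 1.11, 0.819 and 2.47 CPM in HrasG12V shScram libraries and 1.12, 0.907 and 1.25 CPM in WT shScram libraries. Its RNA stood at 2.22, 0.709 and 0.939 CPM in HrasG12V shEif2b5, 0, 0.555 and 0.648 CPM in HrasG12V shScram libraries and 0.809, 0.389 and 1.81 CPM in WT shScram libraries. HrasG12V shEif2b5 lay above HrasG12V shScram in RNA, at a few counts a library, and WT shScram overlapped both. Mean footprint level per kb was 3.79 for Psmb8 and 8.15 for Psmb10, against 301 for Psmb5 and 354 for Psmb7. Footprints of 14 interferon response genes summed to 261 to 279 CPM in all libraries and those of 9 immune cell markers to 27.1 to 47.7 CPM. The part of other cells in the immunoproteasome counts was not tested. Psmb11, known from the thymus, had 1 RNA count in all and no footprint, and Psma8, known from the testis, had 3 RNA counts in all.

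Of the activator genes, Psme1 and Psme2, which form the interferon-inducible cap PA28, had 195 and 101 footprint CPM per kb, and Psme3, its nuclear relative, had 175. Footprints of Psme1 stood at 144, 144 and 143 CPM in HrasG12V shEif2b5, 162, 140 and 150 CPM in HrasG12V shScram libraries and 148, 150 and 137 CPM in WT shScram libraries. Those of Psme2 were 78.2, 81.4 and 74.5 CPM in HrasG12V shEif2b5, 71.6, 75.6 and 78.2 CPM in HrasG12V shScram libraries and 65.3, 69.8 and 81.9 CPM in WT shScram libraries. Those of Psme3 were 140, 149 and 140 CPM in HrasG12V shEif2b5, 169, 159 and 142 CPM in HrasG12V shScram libraries and 157, 114 and 147 CPM in WT shScram libraries. The groups overlapped for all 3 genes. Psme4, the large cap PA200, had 28.2 footprint CPM per kb and 34.7 RNA CPM per kb. Its ratio of footprints to RNA was the lowest of the tested members, yet it ranked at the 40.8 percentile of all genes. Its footprints stood at 178, 164 and 171 CPM in HrasG12V shEif2b5, 148, 180 and 154 CPM in HrasG12V shScram libraries and 170, 157 and 151 CPM in WT shScram libraries and overlapped throughout.

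Footprints relative to RNA were high for most proteasome genes. The ratio of footprint CPM to RNA CPM over all libraries had a median of 2.17 for the 41 tested members, against 0.989 for all 10793 genes tested in both kinds, and 36 of the 41 lay above the median of all genes. All 14 constitutive 20S subunits did, with ratios between 1.90 for Psmb5 and 5.22 for Psma3 and a median of 2.97. Among the 17 constitutive 19S subunits 15 did, the exceptions being Psmd2 at 0.955 and Psmd3 at 0.927, and Psmd14 stood highest at 5.37. Psmd10 had the highest ratio of any member, 5.67, which ranked at the 99.6 percentile of all genes. The other members below the median were Psmb8 at 0.956, Psmb10 at 0.834 and Psme4 at 0.813. Because CPM are scaled within each kind of library, the ratio ranks genes and does not count ribosomes per mRNA.

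**Figure D2:**
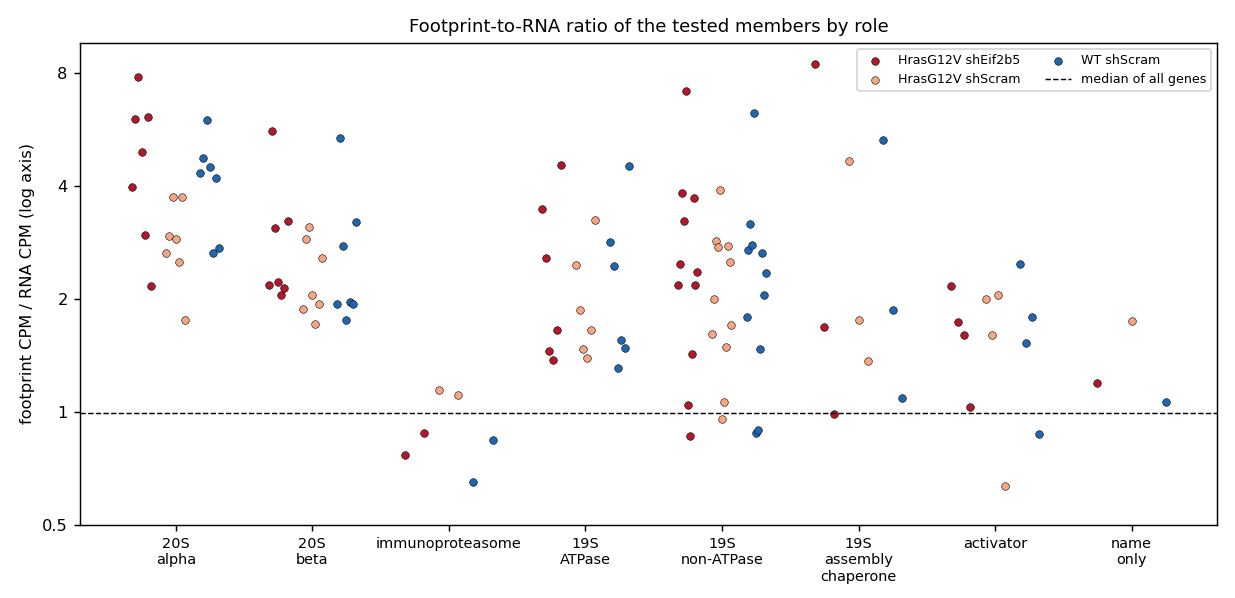
Ratio of mean footprint CPM to mean RNA CPM (log axis) for the 41 tested members by role, with a point per gene and condition, HrasG12V shEif2b5 left of HrasG12V shScram left of WT shScram. The dashed line is the median of all genes, 0.989, and all 14 subunits of the 20S core lie above it in each condition.

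The comparison of HrasG12V shEif2b5 with HrasG12V shScram asks what the Eif2b5 shRNA does in HrasG12V epidermis. RNA of 13 of the 41 tested members passed an edgeR adjusted p of 0.05, 12 lower and 1 higher, where 13.0% of all 11096 tested genes were called, 7.79% lower and 5.23% higher. The 12 that fell were Psma1, Psma2, Psma3, Psma4, Psma6, Psmb2, Psmc1, Psmc6, Psmd8, Psmd10, Psmd14 and Psme4, and the gene that rose was Psmd9. Of the 7 alpha subunits 5 fell, against 1 of the 7 beta subunits, 2 of the 6 ATPases and 2 of the 11 non-ATPase subunits. The median log2 difference of the 41 members was −0.25, and −0.01 over all genes tested. It was −0.13 with offsets for coding G+C and length in the fit and −0.16 without HrasG12V shScram RNA libraries 1 and 3. In bulk libraries, fewer cells of a type and less RNA per cell cannot be told apart.

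Psma2 encodes an alpha ring subunit and lies on mouse chromosome 13 (chr13:14613240-14674236, plus strand). Its RNA stood at 50.7, 52.1 and 40.4 CPM in HrasG12V shEif2b5, 102, 84.4 and 127 CPM in HrasG12V shScram libraries and 62.7, 65.7 and 77.8 CPM in WT shScram libraries. HrasG12V shEif2b5 was below every library of both other groups, and HrasG12V shScram was above them. RNA fell by 1.14 ± 0.18 on the log2 scale between HrasG12V shEif2b5 and HrasG12V shScram (adjusted p = 0.00272), and was 0.61 ± 0.17 higher in HrasG12V shScram than in WT shScram (adjusted p = 0.0377). Its footprints stood at 277, 254 and 328 CPM in HrasG12V shEif2b5, 323, 289 and 307 CPM in HrasG12V shScram libraries and 366, 320 and 294 CPM in WT shScram libraries, with all groups overlapping.

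Psma3, an alpha ring subunit with near-identical copies elsewhere (chr12:70974621-70996347, plus strand; coding start shown above), had the largest RNA difference of the members in both comparisons with HrasG12V shScram. Its RNA stood at 44.8, 50.4 and 41.8 CPM in HrasG12V shEif2b5, 120, 71.1 and 134 CPM in HrasG12V shScram libraries and 58.7, 55.6 and 52.6 CPM in WT shScram libraries. HrasG12V shScram library 2 was nearer to the other groups than libraries 1 and 3, without overlap. The log2 difference was −1.26 ± 0.20 between HrasG12V shEif2b5 and HrasG12V shScram (adjusted p = 0.00272) and 0.98 ± 0.19 between HrasG12V shScram and WT shScram (adjusted p = 0.00698). Its footprints stood at 381, 306 and 381 CPM in HrasG12V shEif2b5, 439, 383 and 391 CPM in HrasG12V shScram libraries and 351, 279 and 370 CPM in WT shScram libraries, so HrasG12V shScram was again highest, by 0.28 ± 0.13 over WT shScram, with an adjusted p of 0.336.

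Psma1, another alpha subunit (chr7:114264606-114276118, minus strand), had RNA of 64.8, 73.1 and 70.0 CPM in HrasG12V shEif2b5, 118, 99.4 and 127 CPM in HrasG12V shScram libraries and 71.2, 61.4 and 72.9 CPM in WT shScram libraries. HrasG12V shEif2b5 and WT shScram overlapped, and HrasG12V shScram stood above both. RNA differed by −0.74 ± 0.15 between HrasG12V shEif2b5 and HrasG12V shScram (adjusted p = 0.0069) and by 0.75 ± 0.15 between HrasG12V shScram and WT shScram (adjusted p = 0.00705). Footprints of Psma1 stood at 305, 244 and 275 CPM in HrasG12V shEif2b5, 319, 309 and 287 CPM in HrasG12V shScram libraries and 320, 296 and 272 CPM in WT shScram libraries and overlapped. Psma4 (chr9:54950790-54958030, plus strand) had RNA of 52.2, 52.8 and 58.2 CPM in HrasG12V shEif2b5, 102, 82.2 and 94.3 CPM in HrasG12V shScram libraries and 53.8, 70.7 and 66.7 CPM in WT shScram libraries. It too was highest in HrasG12V shScram, with log2 differences of −0.78 ± 0.16 (adjusted p = 0.0069) for HrasG12V shEif2b5 set against HrasG12V shScram and 0.54 ± 0.15 (adjusted p = 0.0387) for HrasG12V shScram against WT shScram. Its footprints stood at 256, 274 and 274 CPM in HrasG12V shEif2b5, 272, 271 and 259 CPM in HrasG12V shScram libraries and 309, 278 and 269 CPM in WT shScram libraries and overlapped. Psma6 (chr12:55384222-55418454, plus strand) had RNA of 74.4, 62.1 and 47.9 CPM in HrasG12V shEif2b5, 98.1, 98.3 and 120 CPM in HrasG12V shScram libraries and 71.6, 63.7 and 99.6 CPM in WT shScram libraries. The first pair of groups did not overlap (−0.78 ± 0.19, adjusted p = 0.0164), while WT shScram library 3 lay among the HrasG12V shScram values (0.42 ± 0.19, adjusted p = 0.17).

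Psmb2, a structural beta subunit on chromosome 4 (chr4:126677630-126709714, plus strand), was the only called beta subunit. Its RNA stood at 40.3, 44.7 and 33.4 CPM in HrasG12V shEif2b5, 81.0, 67.7 and 90.2 CPM in HrasG12V shScram libraries and 34, 52.5 and 45.4 CPM in WT shScram libraries. The HrasG12V shScram values lay above all 6 others, and the log2 differences were −1.02 ± 0.18 (adjusted p = 0.00417) for HrasG12V shEif2b5 set against HrasG12V shScram and 0.86 ± 0.18 (adjusted p = 0.0102) for HrasG12V shScram against WT shScram. Footprints of Psmb2 stood at 218, 209 and 236 CPM in HrasG12V shEif2b5, 240, 218 and 234 CPM in HrasG12V shScram libraries and 250, 243 and 211 CPM in WT shScram libraries and overlapped throughout.

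The catalytic beta subunits did not pass the test in any comparison. RNA of Psmb5 (chr14:54614119-54618022, minus strand; coding start shown above) stood at 99.2, 132 and 108 CPM in HrasG12V shEif2b5, 123, 127 and 154 CPM in HrasG12V shScram libraries and 147, 128 and 116 CPM in WT shScram libraries. RNA of Psmb6 was 131, 104 and 98.6 CPM in HrasG12V shEif2b5, 124, 115 and 137 CPM in HrasG12V shScram libraries and 107, 109 and 125 CPM in WT shScram libraries. For both genes all groups overlapped. RNA of Psmb7 stood at 85.9, 95.4 and 77.5 CPM in HrasG12V shEif2b5, 111, 105 and 138 CPM in HrasG12V shScram libraries and 94.7, 78.1 and 109 CPM in WT shScram libraries, and its difference of −0.45 ± 0.16 between HrasG12V shEif2b5 and HrasG12V shScram, whose libraries did not overlap, had an adjusted p of 0.0709. Footprints of Psmb5 stood at 218, 221 and 255 CPM in HrasG12V shEif2b5, 241, 218 and 230 CPM in HrasG12V shScram libraries and 255, 270 and 242 CPM in WT shScram libraries, where HrasG12V shScram lay below WT shScram without a call (−0.15 ± 0.11, adjusted p = 0.588). Footprints of Psmb6 stood at 205, 228 and 279 CPM in HrasG12V shEif2b5, 249, 231 and 247 CPM in HrasG12V shScram libraries and 221, 225 and 213 CPM in WT shScram libraries, where HrasG12V shScram lay above WT shScram without a call (0.14 ± 0.12, adjusted p = 0.663). Those of Psmb7 stood at 315, 247 and 273 CPM in HrasG12V shEif2b5, 324, 279 and 307 CPM in HrasG12V shScram libraries and 306, 288 and 309 CPM in WT shScram libraries, and all groups overlapped.

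Among the regulatory genes, Psmd14, the deubiquitinase that removes ubiquitin chains at the entrance (chr2:61711694-61800376, plus strand), had the smallest p. Its RNA stood at 36.3, 35.5 and 27.7 CPM in HrasG12V shEif2b5, 68.5, 47.2 and 67.8 CPM in HrasG12V shScram libraries and 31.6, 30.3 and 45.8 CPM in WT shScram libraries. HrasG12V shScram lay above both other groups, narrowly so above WT shScram, and the differences were −0.90 ± 0.20 (adjusted p = 0.0114) for HrasG12V shEif2b5 set against HrasG12V shScram and 0.76 ± 0.20 (adjusted p = 0.0274) for HrasG12V shScram against WT shScram. Its footprints were nearly level, at 234, 229 and 247 CPM in HrasG12V shEif2b5, 264, 210 and 243 CPM in HrasG12V shScram libraries and 246, 190 and 235 CPM in WT shScram libraries.

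Psmc6, an ATPase of the unfolding ring (chr14:45329788-45349705, plus strand), had RNA of 79.9, 89.4 and 64.4 CPM in HrasG12V shEif2b5, 138, 99.4 and 128 CPM in HrasG12V shScram libraries and 84.2, 85.5 and 85.2 CPM in WT shScram libraries. The differences were −0.65 ± 0.16 (adjusted p = 0.0164) for HrasG12V shEif2b5 set against HrasG12V shScram and 0.53 ± 0.16 (adjusted p = 0.0483) for HrasG12V shScram against WT shScram, with no overlap in either. Footprints of Psmc6 stood at 397, 306 and 354 CPM in HrasG12V shEif2b5, 424, 380 and 378 CPM in HrasG12V shScram libraries and 399, 326 and 425 CPM in WT shScram libraries and overlapped. Psme4, the PA200 cap (chr11:30771726-30880361, plus strand), had RNA of 162, 184 and 154 CPM in HrasG12V shEif2b5, 260, 222 and 281 CPM in HrasG12V shScram libraries and 160, 187 and 201 CPM in WT shScram libraries. HrasG12V shScram was again above the other groups, and the log2 differences were −0.61 ± 0.15 (adjusted p = 0.0145) for HrasG12V shEif2b5 set against HrasG12V shScram and 0.48 ± 0.15 (adjusted p = 0.0533) for HrasG12V shScram set against WT shScram. Of the other regulatory genes that fell, the ATPase gene Psmc1 differed by −0.51 ± 0.14 (adjusted p = 0.0284), Psmd8 by −0.46 ± 0.14 (adjusted p = 0.0425) and the assembly chaperone Psmd10 by −1.05 ± 0.32 (adjusted p = 0.042). Psmd10 RNA was low throughout, at 5.18, 6.74 and 2.82 CPM in HrasG12V shEif2b5, 10.3, 9.44 and 11.2 CPM in HrasG12V shScram libraries and 8.50, 8.94 and 7.05 CPM in WT shScram libraries.

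Psmd9, an assembly chaperone of the base (chr5:123169413-123250131, plus strand; coding start shown above), moved the other way. Its RNA stood at 53.3, 41.1 and 43.7 CPM in HrasG12V shEif2b5, 32.6, 35.5 and 26.5 CPM in HrasG12V shScram libraries and 39.3, 36.9 and 38.5 CPM in WT shScram libraries. HrasG12V shEif2b5 lay above both other groups, by 0.56 ± 0.17 over HrasG12V shScram (adjusted p = 0.0425). The call was kept in 7 of 23 alternatives and in 1 of 9 fits that left out an RNA library (adjusted p = 0.163 with the offsets). RNA of the ubiquitin receptor Psmd4 stood at 148, 162 and 163 CPM in HrasG12V shEif2b5, 136, 178 and 125 CPM in HrasG12V shScram libraries and 158, 151 and 142 CPM in WT shScram libraries, with all groups overlapping. Footprints of Psmd4 stood at 234, 219 and 220 CPM in HrasG12V shEif2b5, 224, 209 and 219 CPM in HrasG12V shScram libraries and 197, 226 and 240 CPM in WT shScram libraries and overlapped as well. Psmc3ip, the gene that matches by name only, had RNA of 20.4, 22.7 and 27.2 CPM in HrasG12V shEif2b5, 13.4, 14.4 and 17.7 CPM in HrasG12V shScram libraries and 20.6, 16.3 and 20.3 CPM in WT shScram libraries, and its difference of 0.61 ± 0.22 for HrasG12V shEif2b5 against HrasG12V shScram had an adjusted p of 0.0673. Footprints of Psmc3ip stood at 27.8, 30.1 and 25.8 CPM in HrasG12V shEif2b5, 30.8, 24.3 and 24.0 CPM in HrasG12V shScram libraries and 15.9, 16.1 and 28.8 CPM in WT shScram libraries, and WT shScram library 3 lay among the values of the other groups. RNA of Psme1 stood at 72.2, 60.6 and 67.2 CPM in HrasG12V shEif2b5, 73.1, 83.8 and 69.3 CPM in HrasG12V shScram libraries and 53.8, 56.7 and 64.4 CPM in WT shScram libraries. HrasG12V shScram lay above WT shScram for Psme1, without a call (0.36 ± 0.15, adjusted p = 0.15). RNA of Psme2 stood at 54.0, 44.7 and 36.6 CPM in HrasG12V shEif2b5, 49.6, 47.2 and 43.8 CPM in HrasG12V shScram libraries and 46.5, 43.9 and 52.6 CPM in WT shScram libraries. RNA of Psme3 stood at 82.9, 89.7 and 95.4 CPM in HrasG12V shEif2b5, 89.4, 63.3 and 76.6 CPM in HrasG12V shScram libraries and 70.0, 91.3 and 72.5 CPM in WT shScram libraries. For both genes all groups overlapped.

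**Figure D3:**
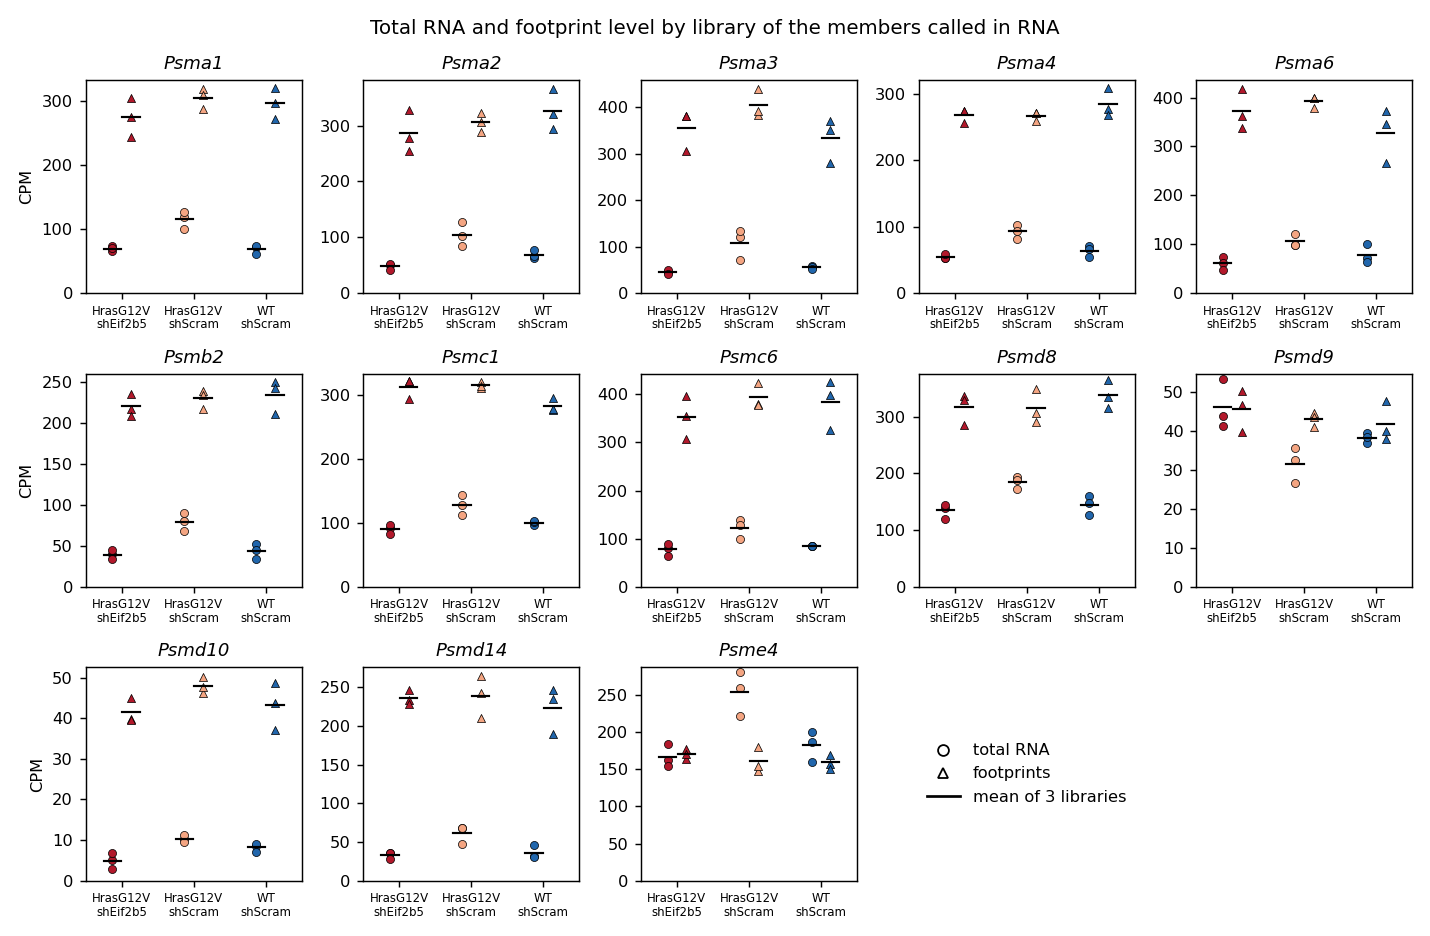
Level by library (CPM, linear axes from 0) of the 13 members whose RNA passed the test in any comparison, with circles for total RNA, triangles for footprints and a bar at the mean of 3 libraries, HrasG12V shEif2b5 left of HrasG12V shScram left of WT shScram. Mean RNA of 12 of the 13 is highest in HrasG12V shScram, and the footprint values of the 3 conditions lie close together.

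The number called rested on the libraries included. Without HrasG12V shScram RNA library 1 or 3 the count was 6, where 404 of 11234 and 445 of 11218 genes were called. It was 7 without HrasG12V shEif2b5 RNA library 1 (480 of 11299 genes) and 5 without HrasG12V shEif2b5 RNA library 3 (197 of 11312 genes). In the full fit 1444 of 11096 genes were called, so calls fell over the whole table too. Leaving out HrasG12V shScram RNA libraries 1 and 3 together left 1 library in that group. Without both libraries Psma2 differed by −0.81. Psma2, Psma3, Psma1, Psma4 and Psmb2 passed whichever single RNA library was left out. Psma6 and Psmd14 passed in 7 of those 9 fits and Psmc6 and Psme4 in 5. Psmc1 passed in 4, Psmd10 in 3, Psmd8 in 2 and Psmd9 in 1.

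The comparison of HrasG12V shScram with WT shScram sets HrasG12V epidermis against wild-type epidermis of another strain. RNA of 7 of the 41 members passed the test, all of them higher, where 7.7% of all tested genes were called, 4.65% higher and 3.05% lower. They were Psma1, Psma2, Psma3, Psma4, Psmb2, Psmc6 and Psmd14, whose values stand above, and the median over the 41 members was 0.24, against 0.01 over all genes tested. That median was 0.05 with offsets for coding G+C and length and 0.04 without HrasG12V shScram RNA libraries 1 and 3. This comparison shares the HrasG12V shScram libraries with the preceding one, so the opposite signs of the values are not independent of each other. The genes nearest the threshold on its other side were Psme4 (adjusted p = 0.0533) and the alpha subunit gene Psma7, whose RNA stood at 136, 142 and 170 CPM in HrasG12V shScram, against 111, 124 and 109 CPM in WT shScram libraries (0.39 ± 0.14, adjusted p = 0.0949). All 7 alpha subunits had a log2 difference above 0, between 0.31 and 0.98, as did 6 of the 7 beta subunits, which ran between −0.06 and 0.86. The count was 2 without WT shScram RNA library 1, where 189 genes were called over the whole table. It was 3 without WT shScram RNA library 2 (218 genes) or HrasG12V shScram RNA library 1 (246) or 3 (294). It was 4 without WT shScram RNA library 3 (397) or HrasG12V shEif2b5 RNA library 1 (707) or 2 (583). It was 12 without HrasG12V shScram RNA library 2 (2431 genes). In the full fit 854 genes were called. By gene, Psma1 and Psma3 kept the call in all 9 fits that left out a single RNA library. Psmb2 kept it in 8 of the 9, Psmd14 in 5, Psma2 in 2, and Psma4 and Psmc6 in 1 each. Leaving out HrasG12V shScram RNA libraries 1 and 3 together left 1 library in that group. A fit with the replicate number as a block called 4 members and 5.84% of all genes.

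Between HrasG12V shEif2b5 and WT shScram no member passed the edgeR test in RNA, where 0.324% of all tested genes were called, 0.225% higher and 0.0991% lower. DESeq2 and limma voom also called 0, and 1 member, Psma2, had an unadjusted p under 0.05 (−0.53 ± 0.18, adjusted p = 0.375). The members' log2 differences ran between −0.67 for Psmd10 and 0.34 for Psmb8, with a median of −0.08. The 95% interval of the difference was −0.30 to 0.33 for Psma1, −0.70 to 0.14 for Psma3 and −0.57 to 0.31 for Psmd14. A miss of the threshold does not show that the levels were the same.

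Footprints of the members did not pass the test in any comparison. Between HrasG12V shEif2b5 and HrasG12V shScram 0 of 41 members were called, where 0.0% of 11448 tested genes were called, and no member had an unadjusted p under 0.05 in edgeR. Between HrasG12V shScram and WT shScram 0 were called (1.7% of all genes, 1.23% higher and 0.472% lower), with 3 members at an unadjusted p under 0.05, namely Psmb8, Psma3 and Psmd6. Between HrasG12V shEif2b5 and WT shScram 0 were called (0.97% of all genes, 0.76% higher and 0.21% lower), with 3 at an unadjusted p under 0.05, namely Psma7, Psmc3ip and Psmd1. DESeq2 and limma voom called 0 in all 3 comparisons as well. Without WT shScram footprint library 3, 2 members were called against WT shScram, in HrasG12V shScram and likewise in HrasG12V shEif2b5. Calls over all genes without that library are not given here.

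The footprint differences were small as well as uncalled. Leaving out the immunoproteasome genes and Psmc3ip, the footprints of HrasG12V shEif2b5 differed from those of HrasG12V shScram by −0.21 to 0.21 on the log2 scale in the remaining tested members, with SEs of 0.11 to 0.14. The 95% interval was −0.36 to 0.16 for Psma2, −0.46 to 0.09 for Psma3, −0.30 to 0.18 for Psmb2 and −0.27 to 0.25 for Psmd14. For these genes the interval therefore left out a fall in footprints as large as the estimated fall in RNA, which was 1.14, 1.26, 1.02 and 0.90 on the log2 scale.

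**Figure D4:**
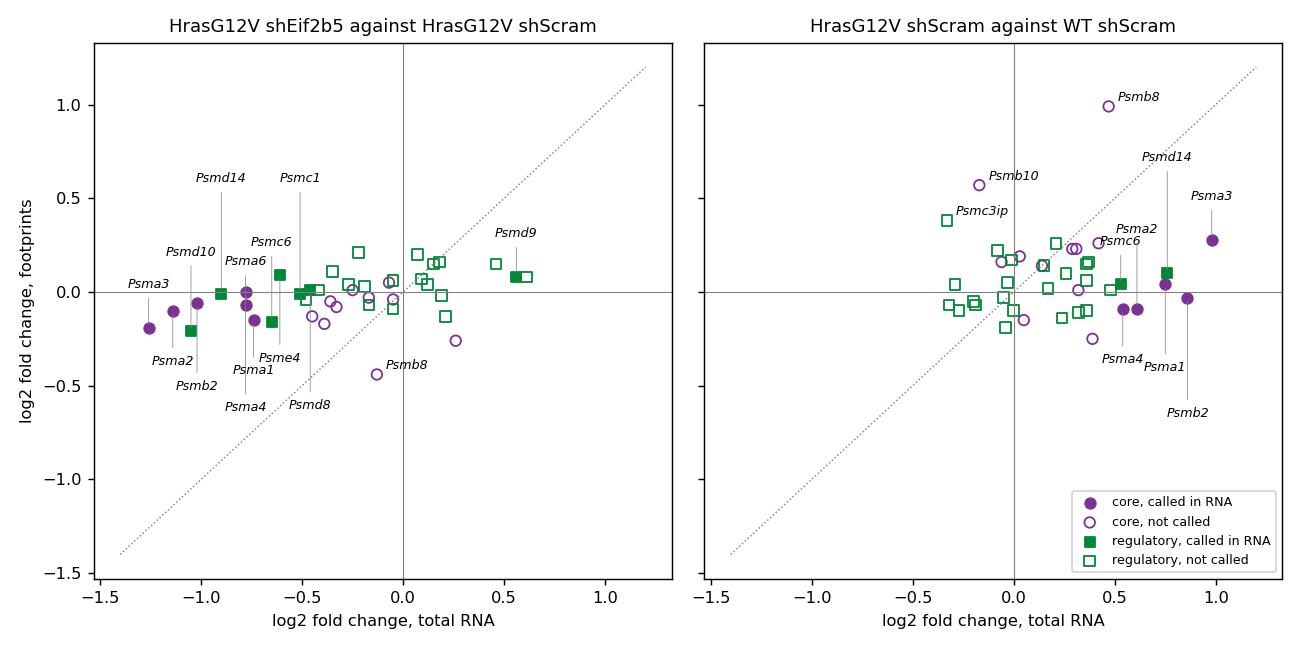
log2 fold change of footprints (vertical axis) against that of total RNA (horizontal axis) for the 41 tested members, with circles for core and squares for regulatory genes, filled where RNA was called, for HrasG12V shEif2b5 against HrasG12V shScram (left) and HrasG12V shScram against WT shScram (right). The dotted line marks equal change, and the members called in RNA spread along the horizontal axis with footprint changes between −0.21 and 0.28.

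Whether the footprint difference departed from the RNA difference was tested as an interaction in a model over all 18 libraries, called translation efficiency here. That model does not pair footprint and RNA libraries, though same-numbered ones of a condition had correlations of 0.016 to 0.27. Between HrasG12V shEif2b5 and HrasG12V shScram 6 of the 41 members passed, all higher, where 2.11% of 10793 genes were called and 1.8% were called higher. They were Psma3 (1.07 ± 0.24, adjusted p = 0.024), Psma2 (1.03 ± 0.22, adjusted p = 0.0178), Psmb2 (0.95 ± 0.21, adjusted p = 0.0232), Psmd14 (0.88 ± 0.24, adjusted p = 0.0453), Psma4 (0.77 ± 0.18, adjusted p = 0.0265) and Psme4 (0.69 ± 0.18, adjusted p = 0.0441). With a block that pairs same-numbered libraries 5 passed, where 3.06% of all genes were called, and Psme4 did not (edgeR adjusted p = 0.0502). In each of the 6 called without the block the RNA was lower in HrasG12V shEif2b5 and the footprints differed by less than 0.20 on the log2 scale, so the higher ratio came with lower RNA. By condition, the ratio of mean footprint CPM to mean RNA CPM of Psma3 was 7.79 in HrasG12V shEif2b5, 3.74 in HrasG12V shScram and 5.99 in WT shScram, and that of Psmd14 was 7.14 in HrasG12V shEif2b5, 3.90 in HrasG12V shScram and 6.23 in WT shScram. Ranks among all genes moved little, at percentiles of 99.6, 98.7 and 99.1 for Psma3 and 99.4, 98.9 and 99.2 for Psmd14 in that order. Over all 10793 genes the SD of the log2 ratio was 1.28, 1.07 and 1.23, so ratios were less spread in HrasG12V shScram across the whole table. The count was 0 without footprint library 3 of HrasG12V shEif2b5, footprint library 2 or 3 of HrasG12V shScram, or RNA library 3 of either group, 1 without RNA library 1 of either, 3 without footprint library 1 of HrasG12V shScram, and 11 without RNA library 2 of HrasG12V shScram. Calls over all genes in these fits are not given here, so the counts may follow the whole table.

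Between HrasG12V shScram and WT shScram only Psmb2 passed the test of translation efficiency, and was lower (−0.89 ± 0.21, adjusted p = 0.0352), where 1.17% of all genes were called and 1.02% were called lower. Its footprint-to-RNA ratio was 2.89 in HrasG12V shScram and 5.34 in WT shScram, at the 95.5 and 98.5 percentile of all genes. The next members were Psma1 (−0.70 ± 0.19, adjusted p = 0.0536) and Psma4 (−0.64 ± 0.18, adjusted p = 0.0737), and DESeq2 called 5. The Psmb2 call was kept in 9 of the 18 fits that left out a library, and the number of calls reached 7 without HrasG12V shScram RNA library 2 and 5 without WT shScram footprint library 3. It was 0 without any of the HrasG12V shScram footprint libraries, WT shScram footprint library 1 or 2, HrasG12V shScram RNA library 1 or 3, or WT shScram RNA library 1 or 3. Here too calls over all genes in these fits are not given. Between HrasG12V shEif2b5 and WT shScram edgeR, DESeq2 and limma voom called 0 members (edgeR called 0.0% of all genes), and 2 members, Psma6 and Psmd6, had an unadjusted p under 0.05.

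Core genes moved further than regulatory genes in RNA. For HrasG12V shEif2b5 against HrasG12V shScram the median log2 difference was −0.37 over the 16 tested core genes and −0.17 over the 25 tested regulatory genes, a gap of −0.20. Single libraries of a group varied by an SD of 0.114 in core minus regulatory level. This SD is the spread of single libraries and not that of a gap between conditions. Between HrasG12V shScram and WT shScram the medians were 0.36 and 0.15 and the gap 0.20. Within the core the alpha subunits differed more than the beta subunits, at medians of −0.78 and −0.25 for HrasG12V shEif2b5 set against HrasG12V shScram and 0.54 and 0.14 for HrasG12V shScram against WT shScram. Alpha genes also held less G and C in their coding sequence, at a median of 45.1% and of 54.6% in beta genes. The constitutive 19S subunits stood at −0.22 and 0.17 in these comparisons. Between HrasG12V shEif2b5 and WT shScram the gap of core and regulatory RNA was −0.06.

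In footprints the gap between core and regulatory medians was −0.11 for HrasG12V shEif2b5 set against HrasG12V shScram and 0.11 for HrasG12V shScram against WT shScram, with medians of −0.08 and 0.15 over core and 0.04 and 0.04 over regulatory genes and an SD of 0.0384 between replicate libraries. Both were smaller than the gaps in RNA. In HrasG12V shEif2b5 against HrasG12V shScram 13 of 16 core genes had a footprint difference below 0, and 16 of 25 regulatory genes had one above 0. The 16 core genes ran between −0.44 and 0.05. The 14 constitutive 20S genes among them ran between −0.19 and 0.05, with 11 below 0. In translation efficiency the gap was 0.15 for HrasG12V shEif2b5 set against HrasG12V shScram and −0.08 for HrasG12V shScram against WT shScram. The SD set beside it, 0.12, was derived from the RNA and footprint SDs as if those libraries were independent, and was not measured. These medians carry no test.

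RNA differences of the members ran with the base composition of their coding sequence. The 12 members whose RNA fell between HrasG12V shEif2b5 and HrasG12V shScram had a median G+C share of 44.9%, the 28 not called 51.3%, and Psmd9, which rose, 58.9%. The 7 that rose between HrasG12V shScram and WT shScram had a median of 44.7%, against 51.0% in the 34 not called. Across the 41 members, which are not independent replicates, Pearson's r between G+C share and RNA log2 difference was 0.65 for HrasG12V shEif2b5 set against HrasG12V shScram and −0.63 for HrasG12V shScram against WT shScram. Across all genes tested in RNA r was 0.54 and −0.44, so the same slope is seen in the whole table. Of the genes whose coding starts are shown, Psma3 and Psma1, with few G and C at the last codon position, were lower in HrasG12V shEif2b5 than in HrasG12V shScram and Psmd9, with many, was higher, while Psmb5, also with many, was not called. Core and regulatory genes had like composition, with medians of 50.5% and 50.4%, but the alpha subunits had a median of 45.1% and the beta subunits of 54.6%.

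**Figure D5:**
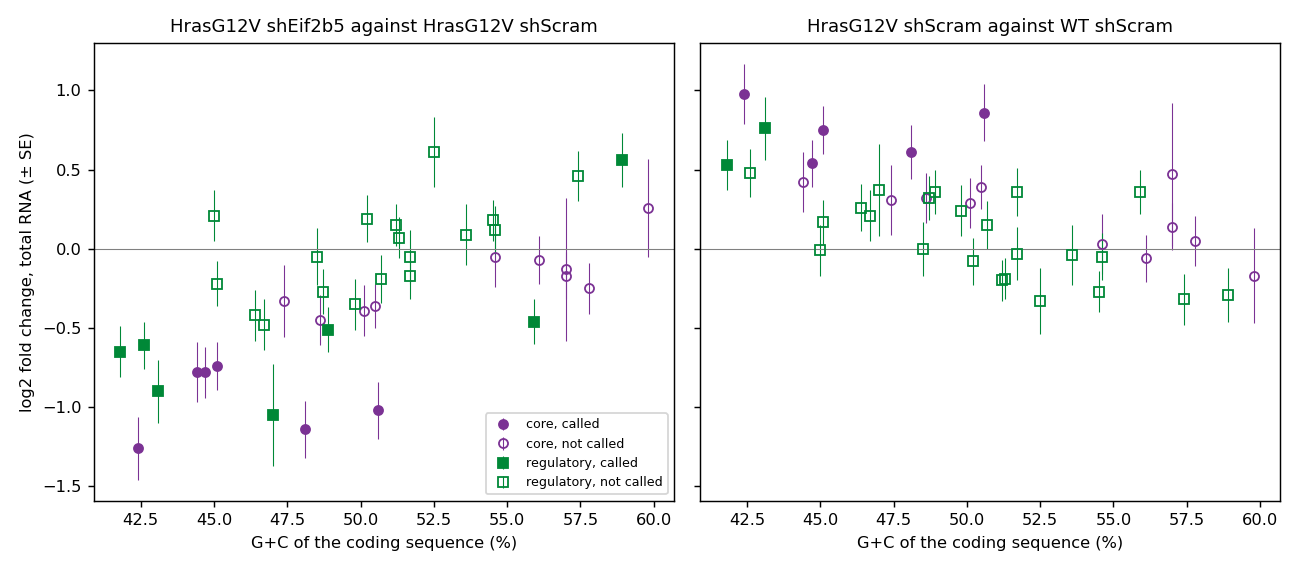
log2 fold change of total RNA with its SE (vertical axis) against the G+C share of the coding sequence (horizontal axis, %) for the 41 tested members, with circles for core and squares for regulatory genes, filled where called, for HrasG12V shEif2b5 against HrasG12V shScram (left) and HrasG12V shScram against WT shScram (right). The members called lower on the left had a median of 44.9% and those called higher on the right 44.7%, near the low end of the range of 41.8% to 59.8%.

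With offsets for coding G+C and length in the fit, 5 of 41 members passed in RNA between HrasG12V shEif2b5 and HrasG12V shScram, where 5.61% of all genes were called. Psma2 (−0.84, adjusted p = 0.00692), Psmb2 (−0.82, adjusted p = 0.0128), Psma3 (−0.68, adjusted p = 0.0192) and Psmd8 (−0.55, adjusted p = 0.0221) were lower and Psme3 was higher. Between HrasG12V shScram and WT shScram only Psmb2 passed (0.66, adjusted p = 0.0321), where 3.69% of all genes were called. In translation efficiency Psma2 (0.83, adjusted p = 0.0283) and Psmb2 (0.83, adjusted p = 0.0343) passed for HrasG12V shEif2b5 against HrasG12V shScram, where 1.03% of all genes were called. What base composition contributes to the RNA differences beyond these fits was not tested.

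Depth and cell markers also moved with the RNA differences. The 3 deeper RNA libraries were 2 of HrasG12V shScram and 1 of WT shScram, and none was of HrasG12V shEif2b5. Among these 3 libraries the median log2 difference over all 41 tested members was 0.14 for HrasG12V shScram against WT shScram (2 libraries against 1), and among the other RNA libraries it was 0.17 (1 against 2). For HrasG12V shEif2b5 against HrasG12V shScram only the shallower libraries, 3 against 1, could be compared, and the median over the 41 was −0.17. These splits have 1 library on a side and carry no test. With the depth class as a term, 4 members were called in each of these comparisons, where 2.85% of all genes were called when HrasG12V shEif2b5 was set against HrasG12V shScram and 7.08% for HrasG12V shScram against WT shScram. Of 8 basal keratinocyte markers, Krt5 and Krt14 were called higher in RNA of HrasG12V shEif2b5 set against HrasG12V shScram (13.0% of all genes called). Krt15 was called lower in HrasG12V shScram set against WT shScram (7.7% of all genes called), and the sum of the 8 was lowest in the 3 HrasG12V shScram libraries. Keratins make up most of that sum, and RNA of the basal factor Trp63 did not follow it, at 366, 310 and 280 CPM in HrasG12V shEif2b5, 407, 359 and 409 CPM in HrasG12V shScram libraries and 282, 319 and 438 CPM in WT shScram libraries. Of 6 spinous markers, Dsg1a and Krtdap were called lower in HrasG12V shEif2b5 than in HrasG12V shScram. Mean RNA of Dsc1 was lower too, without a call, while that of Krt1, Krt10 and Sbsn was higher. Krtdap was called higher for HrasG12V shScram against WT shScram, while mean RNA of Krt1, Krt10, Dsg1a, Dsc1 and Sbsn was lower. The median log2 differences of the 6 were −0.10 and −0.23. Of 4 granular layer markers tested Flg2 was called lower in HrasG12V shEif2b5 than in HrasG12V shScram. Mean RNA of Hrnr was lower too, without a call, while that of Lor and Ivl was higher. RNA of 5 melanocyte markers summed to 427 to 550 CPM in HrasG12V shEif2b5, 555 to 692 CPM in HrasG12V shScram libraries and 356 to 530 CPM in WT shScram libraries, so it was highest in the group where proteasome RNA was. The part of these cell markers in the result was not tested.

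Genes that work with the proteasome were listed separately. Of 13 proteasome-bound and assembly factors, 1 fell and 1 rose in RNA between HrasG12V shEif2b5 and HrasG12V shScram, and 1 rose between HrasG12V shScram and WT shScram, where 13.0% and 7.7% of all genes were called. Uchl5, a deubiquitinase that docks on the 19S particle, had RNA of 24.4, 32.3 and 26.3 CPM in HrasG12V shEif2b5, 71.2, 48.9 and 47.5 CPM in HrasG12V shScram libraries and 31.6, 40.4 and 27.7 CPM in WT shScram libraries. It was highest in HrasG12V shScram, with differences of −1.02 ± 0.21 (adjusted p = 0.00734) for HrasG12V shEif2b5 set against HrasG12V shScram and 0.78 ± 0.20 (adjusted p = 0.0275) for HrasG12V shScram against WT shScram. Shfm1, a small 19S subunit under its older symbol, had RNA of 305, 256 and 281 CPM in HrasG12V shEif2b5, against 153, 236 and 131 CPM in HrasG12V shScram libraries, and was higher by 0.70 ± 0.19 (adjusted p = 0.0248). None of the 13 passed in footprints in any comparison, with adjusted p of 0.994 for Uchl5 and for Shfm1 between HrasG12V shEif2b5 and HrasG12V shScram.

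Of 11 genes known to control proteasome gene expression, 2 passed in RNA between HrasG12V shScram and WT shScram (7.7% of all genes). Nfe2l1, the factor that answers proteasome shortage, had RNA of 134, 163 and 131 CPM in HrasG12V shScram, against 207, 225 and 181 CPM in WT shScram libraries, and was lower by −0.52 ± 0.14 (adjusted p = 0.0377). Nfe2l2, the oxidative stress factor that binds the same elements, had RNA of 36.3, 55.3 and 47.0 CPM in HrasG12V shEif2b5, 73.3, 60.0 and 74.5 CPM in HrasG12V shScram libraries and 38.0, 40.8 and 32.5 CPM in WT shScram libraries. It was higher in HrasG12V shScram than in WT shScram (0.92 ± 0.18, adjusted p = 0.00685) and lower in HrasG12V shEif2b5 than in HrasG12V shScram (−0.59 ± 0.18, adjusted p = 0.0368). Its footprints stood at 107, 116 and 111 CPM in HrasG12V shScram, against 80.9, 64.8 and 81.4 CPM in WT shScram libraries, without overlap (0.56 ± 0.14, adjusted p = 0.0557). In HrasG12V shEif2b5 they stood at 89.9, 97.2 and 131 CPM, overlapping HrasG12V shScram and above every WT shScram library. Of 18 genes that tag or deliver substrates, the ubiquilin genes Ubqln1 (−0.60 ± 0.15, adjusted p = 0.0181) and Ubqln2 (−0.69 ± 0.18, adjusted p = 0.0185) fell in RNA between HrasG12V shEif2b5 and HrasG12V shScram (13.0% of all genes), and none passed in the other RNA comparisons. None of the 17 tested in footprints passed in any comparison. Mean footprints in HrasG12V shEif2b5 and HrasG12V shScram were 261 and 252 CPM for Ubqln1 and 144 and 135 CPM for Ubqln2. Ubqln2 was called higher in translation efficiency between these groups (2.11% of all genes).

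Promoter sequence was available in RefSeq (GRCm38.p6) for 38 of the 45 genes, in 41 windows of 250 bases before the start, and was searched on both strands. The core of the antioxidant response element, TGACNNNGC, occurred in 12.2% of the 41 windows and in 10.2% of 32851 windows of all genes. The CCAAT box occurred in 36.6% and 33.8%. The ETS core CGGAAG occurred in 48.8% of the members' windows, 4 of 16 for core and 16 of 25 for regulatory genes, against 13.6% of all windows. Of the 12 members called in RNA that had a window, 7 held the ETS core, 7 the CCAAT box and 2 the antioxidant response element core. The window of Psmd14, a called member whose ETS core match and window lie outside the annotated gene (chr2:61711444-61711693, plus strand), is shown with the match, on the opposite strand, in capitals.
Psmd14 promoter: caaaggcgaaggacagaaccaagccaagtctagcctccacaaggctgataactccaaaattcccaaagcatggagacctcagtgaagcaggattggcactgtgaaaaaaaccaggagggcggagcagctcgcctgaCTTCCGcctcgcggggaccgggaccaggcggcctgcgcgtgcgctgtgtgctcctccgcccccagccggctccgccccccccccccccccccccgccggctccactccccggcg
A match of letters is a description of the window and says nothing of whether a factor binds there.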

How the data were processed

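Per the labels, ribosome footprints and total RNA were sequenced from E18.5 epidermal basal cells, and per the submitters' processing notes the tools were Bowtie, TopHat2 and HTSeq and the build mm10 (versions, strand and multi-mapping settings not given in the sources used here). The deposited table holds raw counts over coding sequences per gene symbol and library, which the authors did not normalise, and every library column entered. Gene symbols were looked up in GENCODE vM21 (GRCm38), by symbol for 19889 genes and by synonym for 613 of 20655.

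Genes passed edgeR 4.0.16 filterByExpr (minimum count 10, minimum total 15), libraries were scaled by TMM within each kind, and a quasi-likelihood model (robust) used the 9 libraries of either kind (11096 genes in RNA, 11448 in footprints), or all 18 with a condition by kind interaction (10793 genes). P-values were adjusted by Benjamini-Hochberg over all genes tested in a comparison, and called means an adjusted p under 0.05. Fold changes are log2 with the model's SE. Near-identical copies were sought with BLAST+ in GENCODE transcripts. The fits were tested on simulated data. Alternatives were DESeq2 1.42.0, limma voom 3.58.1, other scalings and filters, offsets for coding G+C and length, a replicate block and leaving out libraries.

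Values by library in both kinds are given for called members (at most 8 per comparison, by smallest p) and for Psmb5 to Psmb10, Psmc3ip, Psmd4, Psmd14 and Psme1 to Psme4. The 4 members with printed coding starts and the printed promoter were chosen after their values were seen. The members and lists were chosen with earlier results of these data known.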

Additional observations from a re-analysis of the deposited data

How the results depend on the processing

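Counting depth limits Psmb8, Psmb9, Psmb10 and Psmd10 RNA most. Intervals cover the spread of 3 libraries a group. No called member reversed its direction under any alternative run. In RNA of HrasG12V shScram against WT shScram, 7 members were called, and 854 genes over the whole table. With only those conditions in the fit the count was 3 (389 of all genes). It was 1 with offsets for coding G+C and length (409), 4 with a replicate block (648) and 1 with both together (364). Depth class as a term gave 4 (786). Single libraries left out gave 2 to 12, where 189 to 2431 of all genes were called. Leaving out HrasG12V shScram RNA libraries 1 and 3, or the 3 deepest RNA libraries, left 1 HrasG12V shScram library. The members' medians were then 0.04 and 0.16. In RNA of HrasG12V shEif2b5 against HrasG12V shScram, 13 members were called, and 1444 genes over the whole table. The count was 5 with offsets (623 of all genes), 5 with block and offsets (552) and 4 with depth class (316). Single libraries left out gave 5 to 19, where 197 to 3150 of all genes were called. The block alone gave 11 (1226 of all genes), without Psmd8 (adjusted p = 0.0693) and Psmd9 (adjusted p = 0.0569). Without those libraries 1 and 3, and without the 3 deepest, the members' median was −0.16. The fits with block and offsets together, without the 3 deepest libraries and with depth class were chosen after seeing the data. In translation efficiency of HrasG12V shScram against WT shScram, 1 member was called (126 of all genes). The count was 2 with upper-quartile scaling, 2 with a filter at a mean of 10 CPM and 5 with DESeq2. It was 0 with only those conditions and 0 to 7 without a single library. The 6 calls of HrasG12V shEif2b5 against HrasG12V shScram (228 of all genes) became 2 with offsets (111), 2 with block and offsets, and 0 to 11 without a single library. Without libraries 1 and 3 the members' medians were −0.05 and 0.15 in these comparisons, and without the 3 deepest −0.04 and 0.15. Calls over all genes in the other translation efficiency fits and the footprint fits are not given here. The block alone gave 5, without Psme4 (adjusted p = 0.0502), and left the other counts in translation efficiency and those in footprints the same. Footprint calls were 0 throughout except 0 to 2 against WT shScram without a single library. The gap of core and regulatory footprint medians was 0.05 with the 10 CPM filter for HrasG12V shScram against WT shScram (0.09 to 0.17 without a single library), −0.07 with offsets, with or without the block, for HrasG12V shEif2b5 against HrasG12V shScram (−0.19 to −0.05), and −0.11 with no filter and −0.10 with the 10 CPM filter for HrasG12V shEif2b5 against WT shScram (−0.08 to 0.06). That gap in translation efficiency was −0.20 with the 10 CPM filter for HrasG12V shScram against WT shScram (−0.22 to 0.01 without a single library), 0.03 to 0.22 for HrasG12V shEif2b5 against HrasG12V shScram and −0.03 to 0.13 for HrasG12V shEif2b5 against WT shScram; in RNA single libraries left out gave 0.13 to 0.27, −0.32 to −0.16 and −0.12 to −0.01. The ratio of core to regulatory levels was 1.37 for footprints and 0.954 for RNA by sums, and 1.88 for footprints with constitutive subunits only; single libraries left out gave 2.03 to 2.09 and 1.32 to 1.41. The cause of these changes was not tested. Replicate numbers did not pair libraries across conditions (correlations of same-numbered deviations −0.288 to 0.259 in RNA and −0.144 to 0.191 in footprints); footprint and RNA libraries of a condition correlated best with their own number in 8 of 9.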
